A study of Mus musculus with 8 samples.

Results

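The genes described here encode laminin chains and the basement membrane proteoglycans perlecan and agrin. They were chosen by name: every probe annotated to Lama2, Lamb2, Lamb3, Lamc1, Hspg2 or Agrn was taken, whatever its signal, and each of the 6 genes had 1 probe. They are 6 of the 16593 genes named on the array, and all 6 were among the 8183 genes that passed the filter on low signal. The series measured how the RNA of MLP-29 cells, a line of mouse liver progenitor cells, responds over time to HGF, hepatocyte growth factor, which acts through the receptor tyrosine kinase Met and drives cells to scatter and invade. Cultures were given recombinant HGF for 1 h, 6 h or 24 h, or control medium, with 2 arrays in each of these 4 groups, named replicate a and replicate b. All groups, control included, had been starved over 1 week and were then kept in 2% bovine serum, and per the labels the cultures of a time course were lysed together and the experiment was run again for the other replicate. All results come from this 1 line, grown in culture, and the control has no time point of its own.

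A basement membrane is the thin sheet of matrix beneath an epithelium. Laminins build it: each is a trimer of an alpha, a beta and a gamma chain that assembles into a network at the cell surface and is held there by integrins and dystroglycan. Perlecan and agrin are large proteins that carry heparan sulfate chains, link the laminin network to cells and to other matrix proteins, and bind heparin-binding growth factors such as HGF.

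Signals come from Illumina bead arrays of 1 colour. On each array 11569 to 11893 of 25697 probes were detected, that is had a detection p under 0.05 against the array's negative control beads, and the median raw signal was 113 to 138 intensity units. Against the label of the cells, the epithelial markers Cdh1, Krt8 and Krt18 were detected on all 8 arrays, as were the biliary and progenitor markers Krt19, Krt7 and Sox9, while Prom1 was detected on 0. Of the markers of other liver cells, 0 of 5 stellate and fibroblast, 0 of 4 endothelial and 0 of 3 haematopoietic genes on the array were detected on any array, and of 5 hepatocyte genes Ttr was detected on 1 array. Their summed raw signal was 438 to 467 in control cells, 482 to 494 at 1 h, 496 to 533 at 6 h and 531 to 532 at 24 h for the stellate and fibroblast genes, and 254 to 268 in control cells, 282 to 300 at 1 h, 306 to 321 at 6 h and 304 at 24 h for the haematopoietic genes. The endothelial sum was 390 to 391 in control cells and 400 to 462 over the HGF arrays, and the hepatocyte sum was 416 to 474 in control cells and 467 to 527 over the HGF arrays. The part of these sums in the results was not tested. In bulk RNA, fewer cells that express a gene and less of its RNA per cell cannot be told apart.

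After 6 h in HGF, the laminin chain genes Lama2 and Lamb2 were lower than in control cells and the gamma chain gene Lamc1 and the perlecan gene Hspg2 were higher (log2 changes of -0.55, -0.51, 0.49 and 0.48). Lamb3 and Agrn were within 0.05 log2 units of control at 6 h. In limma's test 4 of the 6 genes passed the test at 6 h, 2 in each direction, where the share of all genes tested that passed was 21.4%. At 1 h limma called 0 of the 6 (2 at an unadjusted p under 0.05), beside 4.79% of all genes (20.2% at an unadjusted p under 0.05), and at 24 h 0 of the 6 (3 at an unadjusted p under 0.05), beside 0% of all genes (19.9% at an unadjusted p under 0.05). These fits left out the replicate letter. With the letter as a block, limma also called Lama2 lower at 1 h and at 24 h, beside 9.04% and 5.38% of all genes. Each of the 4 calls lay close to the threshold of 0.05. Each was lost in most of the fits that left out 1 array, that of Hspg2 in all, as given beside each gene.

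The promoters of the genes that passed the test at 6 h are shown where RefSeq had an entry, so that their base composition and motifs can be seen beside the direction of change. Each is the RefSeq window of 300 bases in build GRCm38.p6, from 250 bases before an annotated transcription start to 50 bases after it, written 5′ to 3′ on the strand of the gene. Capitals mark matches to 3 motifs searched on both strands with overlapping matches counted one by one: the AP-1 element TGANTCA, the GC box GGGCGG and the TATA box TATAAA. Entries were found for 5 of the 6 genes, all but Lamc1, with 7 promoters in all, so that the genes higher at 6 h are represented by Hspg2 alone. The windows are Hspg2 at chr4:137468553-137468852 on the plus strand, Lama2 at chr10:27616893-27617192 on the minus strand and Lamb2 at chr9:108479612-108479911 on the plus strand. The start used need not be the outer end of a gene. The Lama2 window lies almost wholly within the span of the gene given below.
Hspg2: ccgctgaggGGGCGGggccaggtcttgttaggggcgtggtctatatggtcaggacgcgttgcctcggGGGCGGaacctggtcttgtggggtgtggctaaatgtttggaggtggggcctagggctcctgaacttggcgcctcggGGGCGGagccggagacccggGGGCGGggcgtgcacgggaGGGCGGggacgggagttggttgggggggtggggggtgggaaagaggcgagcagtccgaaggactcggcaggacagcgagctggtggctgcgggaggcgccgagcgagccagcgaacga
Lama2: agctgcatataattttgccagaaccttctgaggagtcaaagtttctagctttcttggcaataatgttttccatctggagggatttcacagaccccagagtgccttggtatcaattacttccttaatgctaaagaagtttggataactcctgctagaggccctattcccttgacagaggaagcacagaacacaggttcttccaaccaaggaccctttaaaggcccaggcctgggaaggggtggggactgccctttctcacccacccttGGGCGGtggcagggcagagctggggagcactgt
Lamb2: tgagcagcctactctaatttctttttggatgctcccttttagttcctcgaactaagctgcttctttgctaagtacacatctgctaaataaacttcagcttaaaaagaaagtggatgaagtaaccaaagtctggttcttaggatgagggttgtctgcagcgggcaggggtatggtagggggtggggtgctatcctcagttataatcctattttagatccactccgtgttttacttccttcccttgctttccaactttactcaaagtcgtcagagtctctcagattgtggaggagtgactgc
The Hspg2 window, of the gene whose 6 h and 24 h arrays all lay above control, held 5 GC boxes, 27 CpG dinucleotides and 70.3% G and C. Of the genes that were lower, Lama2 had 1 GC box, 17 bases after the start, 1 CpG and 50.3% G and C, and Lamb2 had 0 GC boxes, 4 CpG and 44% G and C. Over 32841 RefSeq promoters the medians were 52.7% G and C and 7 CpG, and 35.7% held a GC box, 7.81% an AP-1 element and 13.6% a TATA box. Neither the AP-1 nor the TATA letters occurred in any of the 7 windows. The windows not printed were those of Agrn, with 83.3% and 61.3% G and C and 12 and 2 GC boxes at its 2 starts, and of Lamb3, with 59.3% G and C and 0 GC boxes at both.

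**Figure D1:**
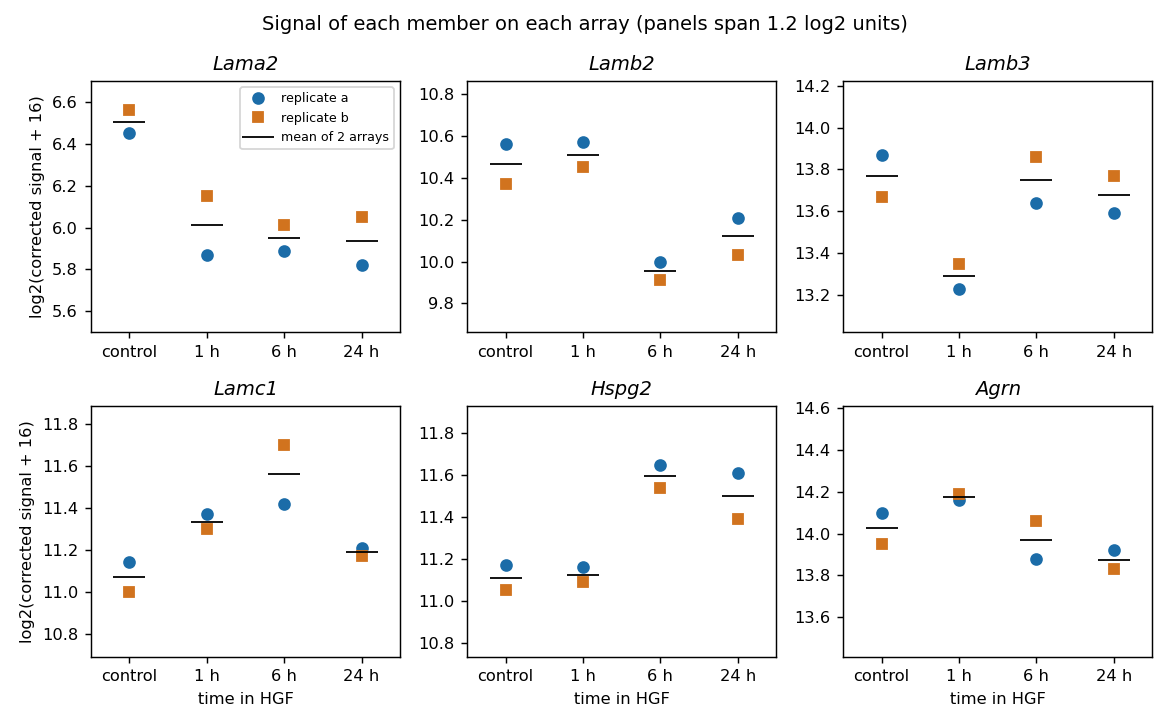
Signal of each gene on each of the 8 arrays, as log2 of background-corrected and quantile-normalized intensity plus an offset of 16 (y axis, each panel spanning the same range), against control and the time in HGF (x axis). Circles are replicate a, squares replicate b and lines the mean of the 2 arrays. Lama2 was lower on all HGF arrays, Lamb2 was lowest at 6 h, Lamb3 was lowest at 1 h, Lamc1 peaked at 6 h and Hspg2 was high at 6 h and 24 h.

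Lama2 encodes the laminin alpha2 chain, whose loss causes congenital muscular dystrophy in humans and mice. The gene lies at chr10:26981285-27617191 (GRCm38.p6, as for all genes here). In log2 signal, the scale of all array values below, Lama2 measured 6.45 on replicate a and 6.56 on replicate b of control, 5.87 and 6.15 at 1 h, 5.89 and 6.01 at 6 h, and 5.82 and 6.05 at 24 h. All 6 HGF arrays lay below both control arrays, and the 3 HGF times overlapped one another. The probe was dim: its raw signal was 139.6 to 153.5 on the HGF arrays, against 161.1 and 178.4 in control, and it was detected on both arrays at 1 h and in control but on 1 of 2 arrays at 6 h and at 24 h, so it passed the filter through control and 1 h.

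At 6 h, Lama2 fell by 0.55 ± 0.15 (SE; 95% interval of the change -0.89 to -0.21) to 5.95 ± 0.08, against 6.50 ± 0.08 in control cells (SD, n = 2 each; fold 0.683; limma, Benjamini-Hochberg adjusted p = 0.0351). The differences were alike at 1 h (-0.49 ± 0.15, adjusted p = 0.116) and at 24 h (-0.57 ± 0.15, adjusted p = 0.125), which did not pass. With the replicate letter as a block, both passed (adjusted p = 0.0404 at 1 h and 0.0414 at 24 h), as did 6 h (adjusted p = 0.012). The size at 6 h depended on how background was treated: it was -0.27 both in the authors' normalized table (adjusted p = 0.103) and without background correction (adjusted p = 0.105), and -0.38 with an offset of 50 (adjusted p = 0.0549), so the call was lost in all 3. It was also lost without either control array, either 6 h array or either 24 h array (adjusted p up to 0.134 over the fits that left out 1 array).

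Lamb2 encodes the laminin beta2 chain, found in the basement membranes of the kidney glomerulus and of the neuromuscular junction. The gene lies at chr9:108479847-108490530. Its signal was 10.56 and 10.37 on the control arrays, 10.57 and 10.45 at 1 h, 10.00 and 9.91 at 6 h, and 10.21 and 10.03 at 24 h. Control and 1 h overlapped at the high end, and the 24 h and 6 h arrays lay below both, those of 6 h lowest.

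Relative to control, Lamb2 fell by 0.51 ± 0.13 at 6 h (interval of the change -0.82 to -0.2, fold 0.702, adjusted p = 0.0326), to 9.95 ± 0.06 at 6 h, against 10.46 ± 0.14 in control cells (SD, n = 2 each). At 1 h the difference was 0.05 ± 0.13 (adjusted p = 0.895) and at 24 h it was -0.34 ± 0.13 (adjusted p = 0.218), with both 24 h arrays below both control arrays. Between the times, Lamb2 was also lower at 6 h than at 1 h (-0.56 ± 0.13, adjusted p = 0.0295), while 24 h and 6 h differed by 0.17 ± 0.13 (adjusted p = 0.455). It was the 1 gene of the 6 to pass the F test over the 3 times (adjusted p = 0.0423), which 23.6% of all genes passed. The fall against control was no longer called without either control array, either 6 h array or 24 h replicate b (adjusted p up to 0.142) or with median scaling (-0.69, adjusted p = 0.0589). The fall against 1 h was no longer called without either 1 h array or either 6 h array (adjusted p up to 0.136) or with median scaling (-0.61, adjusted p = 0.116).

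Lamb3 encodes the laminin beta3 chain, part of the laminin that anchors epithelial cells through hemidesmosomes. It lies at chr1:193294353-193343878. Its signal was 13.87 and 13.67 on the control arrays, 13.23 and 13.35 at 1 h, 13.64 and 13.86 at 6 h, and 13.59 and 13.77 at 24 h. The 1 h arrays lay below all the other 6, while control, 6 h and 24 h overlapped.

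No difference of Lamb3 passed the test. At 1 h it was -0.48 ± 0.14 (interval -0.81 to -0.15; 13.29 ± 0.08 at 1 h, against 13.77 ± 0.14 in control cells, SD, n = 2 each; adjusted p = 0.111, and 0.0782 with the block). At 6 h and 24 h the differences from control were -0.03 ± 0.14 and -0.09 ± 0.14 (adjusted p = 0.916 and 0.76), and without control replicate a they were 0.08 and 0.01. Lamb3 was 0.46 ± 0.14 higher at 6 h than at 1 h (adjusted p = 0.0638), a difference that was called in the authors' normalized table (adjusted p = 0.0458), without background correction (adjusted p = 0.0357) and with an offset of 50 (adjusted p = 0.0484).

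Lamc1 encodes the laminin gamma1 chain, shared by most laminins of the body. It lies at chr1:153218922-153332786. Its signal was 11.14 and 11.00 on the control arrays, 11.37 and 11.30 at 1 h, 11.42 and 11.70 at 6 h, and 11.21 and 11.17 at 24 h. From low to high the order was control, 24 h, 1 h and 6 h, with no overlap between neighbours, although the 2 arrays at 6 h lay farther apart than those of any other group.

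At 6 h Lamc1 rose by 0.49 ± 0.13 (interval 0.18 to 0.81, fold 1.41, adjusted p = 0.0382), to 11.56 ± 0.2 at 6 h, against 11.07 ± 0.09 in control cells (SD, n = 2 each). It differed from control by 0.26 ± 0.13 at 1 h (adjusted p = 0.333) and by 0.12 ± 0.13 at 24 h (adjusted p = 0.653). The neighbouring times were not told apart by the test: 6 h minus 1 h was 0.23 ± 0.13 (adjusted p = 0.281) and 24 h minus 6 h was -0.37 ± 0.13 (adjusted p = 0.118). The rise was called in 1 of the 8 fits that left out 1 array, the one without 6 h replicate a (0.63, adjusted p = 0.0442), and in the other 7, those without either control array, either 1 h array, 6 h replicate b or either 24 h array, the adjusted p was up to 0.184. With median scaling it was 0.36 (adjusted p = 0.23), and with no filter on low signal it kept its size (adjusted p = 0.0514).

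Hspg2 encodes perlecan, the large heparan sulfate proteoglycan of most basement membranes. It lies at chr4:137468751-137570630. Its signal was 11.17 and 11.05 on the control arrays, 11.16 and 11.09 at 1 h, 11.65 and 11.54 at 6 h, and 11.61 and 11.39 at 24 h. The arrays fell into a low pair of groups, control and 1 h, and a high pair, 6 h and 24 h, with overlap inside each pair and none between the pairs.

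Against control, Hspg2 rose by 0.48 ± 0.13 at 6 h (interval 0.18 to 0.78, fold 1.4, adjusted p = 0.0363), to 11.59 ± 0.08 at 6 h, against 11.11 ± 0.08 in control cells (SD, n = 2 each). It was also higher at 6 h than at 1 h (0.46 ± 0.13, adjusted p = 0.0473). At 24 h it was 0.39 ± 0.13 above control (adjusted p = 0.178), and 24 h minus 6 h was -0.09 ± 0.13 (adjusted p = 0.691). Both calls were lost in every one of the 8 fits that left out 1 array, whichever array it was (adjusted p 0.0503 to 0.141 against control and 0.0612 to 0.177 against 1 h), and with median scaling (0.33, adjusted p = 0.329, and 0.43, adjusted p = 0.257). The call against 1 h was also lost with no filter on low signal (adjusted p = 0.0627).

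Agrn encodes agrin, which clusters acetylcholine receptors at the neuromuscular junction and binds laminin and dystroglycan in other tissues. It lies at chr4:156165290-156197533. Its signal was 14.10 and 13.95 on the control arrays, 14.16 and 14.19 at 1 h, 13.88 and 14.06 at 6 h, and 13.92 and 13.83 at 24 h. The 1 h arrays were highest and did not overlap control, while control and 6 h overlapped, as did 6 h and 24 h.

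No difference of Agrn passed the test. Against control it was 0.15 at 1 h (interval -0.14 to 0.45, adjusted p = 0.559), -0.05 at 6 h (interval -0.34 to 0.24, adjusted p = 0.805) and -0.15 at 24 h (interval -0.44 to 0.15, adjusted p = 0.556). None of the 3 intervals reaches the smallest change called for another of the 6 genes at 6 h, the 0.48 of Hspg2.

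**Figure D2:**
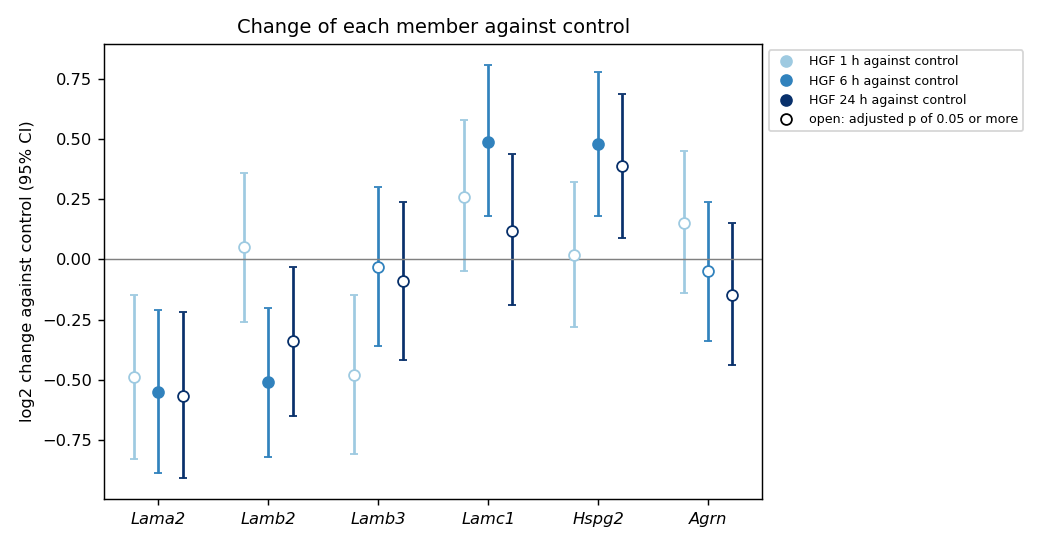
Change of each gene against control at 1, 6 and 24 h in HGF, as log2 of HGF over control with its 95% interval from limma (y axis), by gene (x axis). Filled points have an adjusted p under 0.05 and open points do not. At 6 h Lama2 and Lamb2 lie below 0 and Lamc1 and Hspg2 above it, and no point at 1 h or 24 h is filled.

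The comparisons with control share their control arrays, so they are given side by side. At 1 h Lama2 and Lamb3 had an unadjusted p under 0.05, as did 1655 of all 8183 genes, and none of the 6 was called. The fit with the block called 1 of the 6 at 1 h (Lama2) and 9.04% of all genes. At 6 h the median change of the 6 was -0.04, with -0.03 over all genes. At 24 h Lama2, Lamb2 and Hspg2 had an unadjusted p under 0.05, as did 1626 of all 8183 genes, and the fit with the block called 1 of the 6 (Lama2) and 5.38% of all genes. Groups without overlap were common everywhere: 4 of the 6 genes at 1 h, 4 at 6 h and 5 at 24 h, beside 49.0%, 61.7% and 52.7% of all genes. The F test called 3 of the 6 with the block (Lama2, Lamb2 and Hspg2; adjusted p = 0.0196, 0.0172 and 0.024), where 34.6% of all genes were called.

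Between the HGF times, 2 of the 6 were called at 6 h against 1 h, Hspg2 higher and Lamb2 lower, where 17.4% of all genes were called. For 24 h against 6 h it was 0 of the 6 (1 at an unadjusted p under 0.05, Lamc1), where 13.3% of all genes were called and 28.9% had an unadjusted p under 0.05. Groups did not overlap for 5 of the 6 in the 6 h against 1 h comparison and for 2 of the 6 in that of 24 h against 6 h, beside 60.3% and 59.3% of all genes. Median changes of the 6 were 0.09 and -0.08 in these comparisons, and 0.01 over all genes in both.

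**Figure D3:**
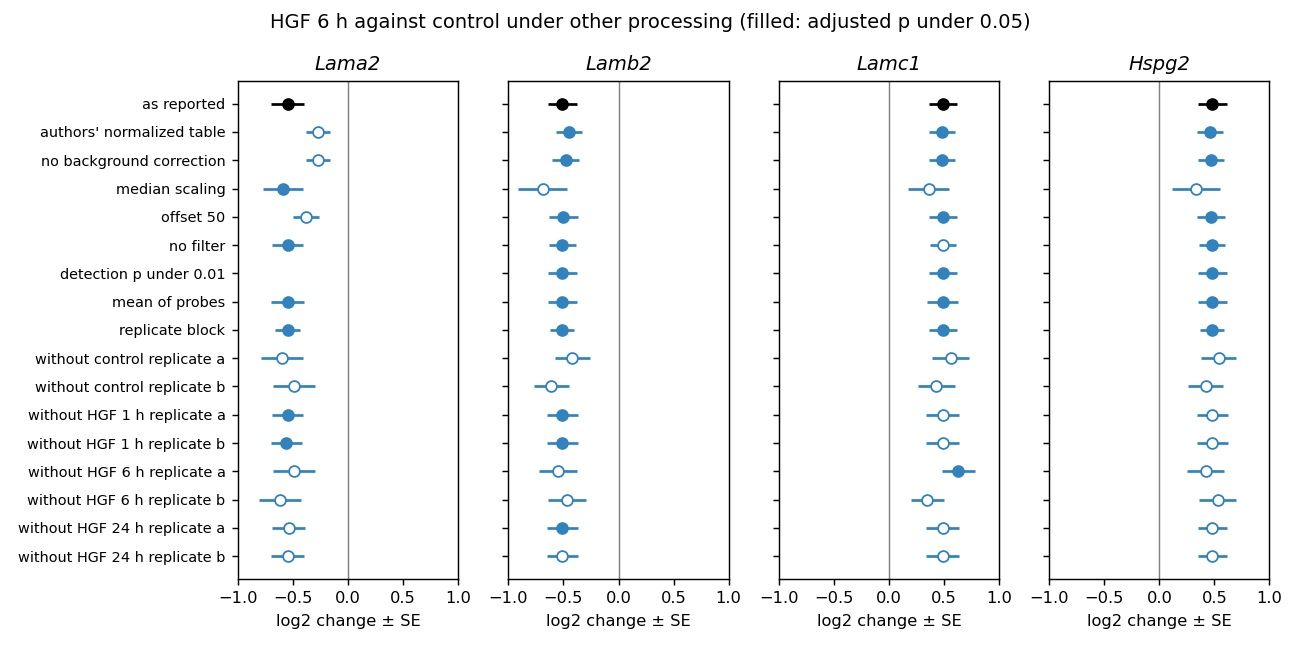
Change of the 4 called genes at 6 h against control (x axis, log2 of HGF over control ± SE) under each way of processing and with each array left out in turn (y axis). Filled points have an adjusted p under 0.05, and Lama2 has no point where its probe did not pass the stricter filter. Every point stays on its side of 0, while most fits that leave out 1 array give open points.

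The scale of the arrays touches these directions. With median scaling in place of quantile normalization the median change of all genes at 6 h was -0.16, and 322 genes were higher and 963 lower, against 759 higher and 993 lower as reported. At 6 h against 1 h the counts were 258 higher and 455 lower with median scaling and 682 and 740 as reported, and at 24 h against 6 h 454 higher and 209 lower with median scaling and 568 and 519 as reported. Relative to that median, the changes at 6 h were -0.43 for Lama2, -0.52 for Lamb2, 0.52 for Lamc1 and 0.5 for Hspg2, close to -0.52, -0.48, 0.52 and 0.51 as reported. The median change at 1 h was -0.15 with median scaling.

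Across the 8 arrays, the signals of Lamb2 and Hspg2 ran opposite to each other (Pearson r = -0.8), as did those of Lama2 and Hspg2 (-0.7), and Lamb2 went with Agrn (0.66). These are descriptions over 4 groups of 2 arrays, which share the time course. The genes most like each in pattern over the same 8 arrays were Atp9b (r = 0.97), Eif4ebp2 and Cfap20 for Lama2, Smpd1 (0.992), Camk2n1 and Fgf1 for Lamb2, and Mtmr9 (0.975), Seh1l and Bms1 for Lamb3. For Lamc1 they were Phlda2 (0.97), Egln1 and Il1f6, for Hspg2 Ppbp (0.977), Klhdc4 and Hspbap1, and for Agrn Hmces (0.941), Ugcg and Rab8a.

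Of the laminin chain genes Lama1, Lama4, Lamb1 and Lamc3, 0 passed the filter, their probes being detected on 0 or 1 of the 8 arrays.

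Matrix proteins that bind laminins or heparan sulfate proteoglycans included 2 of 6 tested that rose at 6 h and 0 that fell, beside 21.4% of all genes called in either direction (median change 0.21, and -0.03 over all genes). Tinagl1, which encodes a matrix protein related to tubulointerstitial nephritis antigen, measured 11.81 and 11.93 at 6 h, against 10.85 and 10.61 in control cells, a rise of 1.15 ± 0.13 (adjusted p = 0.00184). Col18a1, which encodes collagen XVIII, itself a heparan sulfate proteoglycan of basement membranes, measured 14.24 and 14.28 at 6 h, against 13.53 and 13.56 in control cells, a rise of 0.72 ± 0.11 (adjusted p = 0.006). For both, the 6 h arrays were above all the other 6 arrays. At 1 h and at 24 h limma called 0 of these 6, beside 4.79% and 0% of all genes. At an unadjusted p under 0.05 it was 1 and 0, beside 20.2% and 19.9% of all genes. With the block 1 was called at 1 h, beside 9.04% of all genes: Tinagl1 (0.53 ± 0.13, adjusted p = 0.0656 without and 0.0499 with the block). The brightest Ecm1 probe gave 0.07 at 6 h (adjusted p = 0.753) and its other probe 0.51 (adjusted p = 0.0242).

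Receptors of laminins and agrin had 1 of 11 tested higher at 6 h and 0 lower, beside 21.4% of all genes called (median 0.31, and -0.03 over all genes). Itga6, the integrin alpha6 subunit of the hemidesmosome and of laminin receptors, measured 9.28 and 9.78 at 6 h, against 8.15 and 7.96 in control cells, a rise of 1.48 ± 0.18 (adjusted p = 0.00241). On the 1 h arrays it measured 7.35 and 7.57, below both control arrays. With the block 3 were higher and 1 lower at 6 h, beside 28.7% of all genes called: Itga2 (0.53, adjusted p = 0.0395 with the block and 0.353 without), Itgb4 (0.41, 0.0425 and 0.161), which pairs with Itga6, and the dystroglycan gene Dag1 (-0.6, 0.0252 and 0.0516) joined Itga6. Dag1 measured 11.36 and 11.90 at 6 h, against 12.15 and 12.31 in control cells, and its other probe gave -0.17 (adjusted p = 0.521). For Itgb1 and Sdc1 a dimmer probe was called higher at 6 h (1.08, adjusted p = 0.0133, and 0.96, adjusted p = 0.0154) where the brightest was not (0.31, adjusted p = 0.314, and 0.1, adjusted p = 0.699). At 1 h and 24 h limma called 0 of 11, beside 4.79% and 0% of all genes. At an unadjusted p under 0.05 it was 1 and 5 of 11, beside 20.2% and 19.9% of all genes. With the block 2 were lower at 24 h, beside 5.38% of all genes called: Bcam (-0.69, adjusted p = 0.0423) and Sdc4 (-0.52, adjusted p = 0.0438).

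Of the genes for enzymes that build the laminin-binding sugar of dystroglycan, 7 had a probe detected on both arrays of more than 1 group. Of these, 1 rose at 6 h and 0 fell, beside 21.4% of all genes called (median 0.24, and -0.03 over all genes). This was Pomt2, which adds the first mannose. It measured 9.25 on both arrays at 6 h, against 8.45 and 8.53 in control cells (0.76 ± 0.12, adjusted p = 0.00661, and 0.57, adjusted p = 0.0665, with median scaling). At 1 h and 24 h 0 of the 7 were called, beside 4.79% and 0% of all genes. Pomk is not in these counts because its probe was detected on both arrays at 24 h alone and entered the test through them. Of the 7, Pomgnt1 had an unadjusted p under 0.05 at 1 h (-0.37), beside 20.2% of all genes. At 24 h Pomt2 (0.43) and Pomgnt2 (-0.47) did, beside 19.9% of all genes. Of 12 tested genes for heparan sulfate chains, the sugars of perlecan and agrin, Hs3st1, a sulfotransferase that modifies the chain, rose at 1 h and Ext1, a polymerase of the chain, at 6 h, and 0 fell at either time (medians 0.04 at 1 h and 0.16 at 6 h), which is 1 of 12 at each time beside 4.79% of all genes called at 1 h and 21.4% at 6 h.

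Hs3st1 measured 14.43 and 13.58 at 1 h, against 12.01 and 11.73 in control cells, a rise of 2.14 ± 0.26 (adjusted p = 0.00573). By 6 h it measured 12.37 and 12.29, still above both control arrays, and at 24 h 11.81 and 11.59. Ext1 measured 12.20 and 12.45 at 6 h, against 11.36 and 11.73 in control cells, a rise of 0.78 ± 0.17 (adjusted p = 0.0164). Its call was lost without control replicate a or without 6 h replicate b (adjusted p up to 0.0905). At 24 h limma called 0 of the 12 (2 at an unadjusted p under 0.05), beside 0% of all genes (19.9% at an unadjusted p under 0.05). With the block Xylt1, which starts the chain, joined Ext1 at 6 h (0.59, adjusted p = 0.0467, and 0.0508 without), beside 28.7% of all genes called. A dimmer probe of B3gat3, which helps build the linker of the chain, was called higher at 6 h (0.47, adjusted p = 0.0321) where the brightest was not (0.25, adjusted p = 0.36).

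Among proteases known to cut laminins, perlecan or agrin, 4 had a probe detected on both arrays of more than 1 group. Of these, 2 rose at 1 h and 3 at 6 h and 0 fell at either time, beside 4.79% and 21.4% of all genes called (medians 0.63 and 1.09, and -0.05 and -0.03 over all genes). Mmp3, the gene of stromelysin, measured 10.78 and 10.44 at 1 h and 12.69 and 13.24 at 6 h, against 7.94 and 7.82 in control cells, changes of 2.73 ± 0.21 (adjusted p = 0.000546) and 5.09 ± 0.21 (adjusted p = 0.000111). At 24 h it measured 6.12 and 5.89, below both control arrays (-1.87 ± 0.21, adjusted p = 0.0812, and 0.0113 with the block), and its other 2 probes gave -0.59 and -0.84 (adjusted p = 0.28 and 0.155). Ctsl, the gene of cathepsin L, measured 8.46 and 8.63 at 1 h and 9.08 and 8.98 at 6 h, against 7.63 and 7.58 in control cells (0.95 ± 0.12, adjusted p = 0.00658, and 1.43 ± 0.12, adjusted p = 0.00102).

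The 1 h call of Ctsl was lost without control replicate a or 1 h replicate b (adjusted p up to 0.0566). Mmp9, a gelatinase gene, is not in these counts because its probe was detected on the 6 h arrays alone and entered the test through them. Its fitted change at 6 h against control was 1.23, and 0.64 in the authors' normalized table and 0.63 without background correction. For a second estimate on the corrected scale, control arrays were set to their lowest detected signal, or to the probe's own signal where that was higher. The difference was then 1.62-fold. No p-value is given, because the 6 h signal itself let the probe into the test. Mmp14, a membrane-bound protease gene, was also called at 6 h (0.75 ± 0.14, adjusted p = 0.0107) and was named after its value was seen. At 24 h limma called 0 of the 5 tested, Mmp9 included (1 at an unadjusted p under 0.05), beside 0% of all genes (19.9% at an unadjusted p under 0.05). With the block it called Mmp3 alone, beside 5.38% of all genes.

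**Figure D4:**
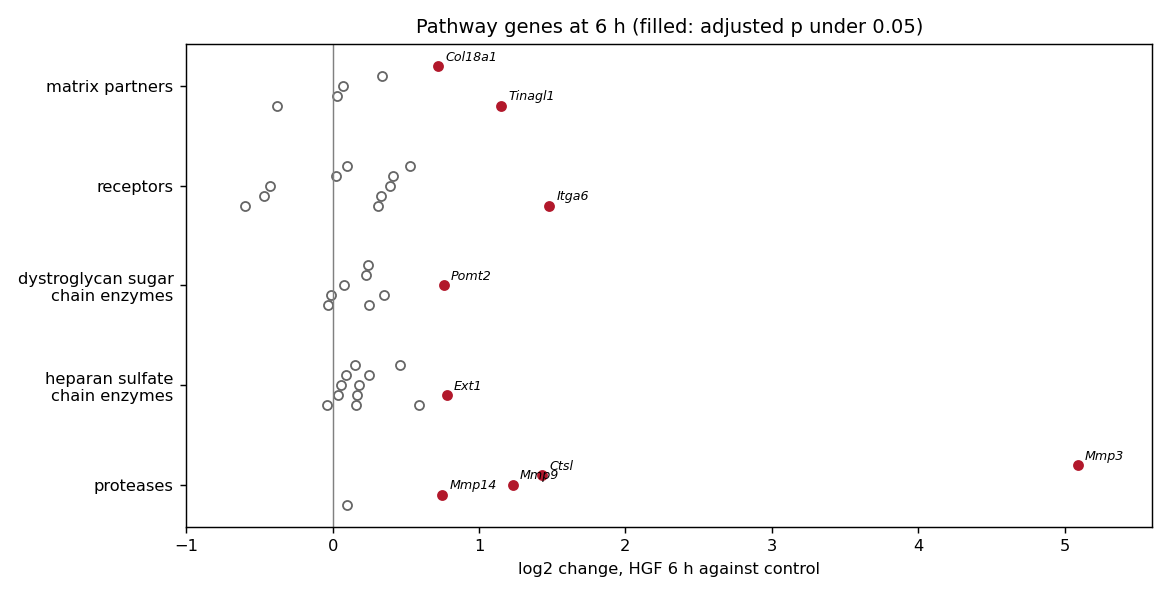
Change at 6 h in HGF against control (x axis, log2 of HGF over control) of every tested gene in the 5 lists around the laminins and proteoglycans, grouped by list (y axis; the vertical offset within a list only separates the points). Filled and named points have an adjusted p under 0.05 from limma. Mmp9, undetected in control, stands at its fitted value and entered the test through its 6 h signal alone. The filled points lie above 0, with Mmp3 farthest at 5.09. That of Mmp9 does not count as a passed test, because the 6 h signal itself let its probe in.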

How the data were processed

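The analysis started from the non-normalized table, which holds for each probe and array a summary intensity that the authors deposited on a linear scale without normalization between arrays, and a detection p-value, which they deposited beside it. A table of intensity already normalized by the authors, linear and without centring (median 129.8 or 129.9 on every array), was an alternative. How the authors normalized was not given in the sources used here, and GenomeStudio 1.9.0 is named in the submitters' processing notes. The tables held 0 other per-sample columns.

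Probes were named through the platform annotation (23978 with 1 symbol, 1719 with none, 0 with several), and 23962 were matched by gene identifier to RefSeq, which changed 0 symbols. With limma 3.58.1 in R 4.3.3, the deposited intensity was background corrected by normexp from the detection p-values with an offset of 16, put on the log2 scale and quantile normalized, so that changes of dim probes are understated. Probes entered the tests when both arrays of 1 or more groups had a detection p under 0.05, and the brightest kept probe by mean signal stood for a gene. All 8 arrays entered 1 fit of 4 group means (4 residual degrees of freedom) with lmFit and eBayes, and p-values were adjusted by Benjamini-Hochberg over all 8183 genes; other probes of a gene were tested in a fit over 11325 probes. They rest on the spread between 2 repeats, pooled over groups, and the number of arrays limits their precision. The steps were tested on simulated data for 6 h against control. The fit called 9 of 67 true changes of 0.5 log2 units (13.4%), 42 of 67 of 1 unit and 62 of 66 of 2 units. Changes near 0.5, such as those of the 6 genes, can thus often go uncalled. Far fewer genes changed in the simulation than were called at 6 h here, so the shares may differ.

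The genes and lists were chosen with earlier results of these data known. All 6 genes are named, as are for each list and time against control up to 3 called genes with the smallest adjusted p, the 3 genes of highest Pearson correlation with each, and genes the text says were named after their values were seen or because the block or another probe changed their call.

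The labels say that the experiment was repeated to give the replicates, and imply, without stating it, that arrays with the same letter belong to the same repeat. The a minus b difference correlated between every pair of groups, at 0.194 to 0.443 over genes, so the letter was used as a block in an alternative fit. The fits as reported left the letter out and so did not use this pairing. With the block more genes were called: 740 against 392 at 1 h, 2350 against 1752 at 6 h and 440 against 0 at 24 h. Alternatives were the authors' table, no background correction, median scaling, an offset of 50, no filter, a detection p under 0.01, the mean of a gene's probes, the replicate block and each array left out, where the lone array of a group is assumed to vary like the others.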

Additional observations from a re-analysis of the deposited data

Results flagged for a closer look

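The change against control was called as different between 6 h and 1 h for 2 of the 6 genes, beside 17.4% of all genes, each time being set against the same control arrays and the difference tested as 6 h against 1 h in limma. For Lamb2 the difference was -0.56 ± 0.13 (adjusted p = 0.0295), with both 6 h arrays below both 1 h arrays, a call lost in 4 of the 8 fits that left out 1 array and with median scaling. For Hspg2 it was 0.46 ± 0.13 (adjusted p = 0.0473), with both 6 h arrays above both 1 h arrays, a call lost in all 8 fits that left out 1 array, with median scaling and with no filter. The groups held 2 arrays each, too few for a check of single outlying arrays.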

How the results depend on the processing

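The 4 genes called at 6 h kept their direction under every alternative that tested them. Genes lower at 6 h numbered 1 of the 6 in the authors' table, without background correction, with an offset of 50 and with median scaling. Of all 8183 genes, 1129, 1144, 1101 and 963 were lower under these settings. At a detection p under 0.01, where Lama2 was not tested, 1 was lower, beside 1085 of 7253 genes. With median scaling 0 of the 6 were higher, beside 322 of 8183 genes, and with no filter 1 was higher, beside 656 of 16593. At 6 h against 1 h, 2 were higher in the authors' table, without background correction and with an offset of 50, beside 804, 800 and 742 of 8183 genes. With no filter 0 were higher, beside 526 of 16593 genes. With median scaling it was 0 in either direction, beside 258 higher and 455 lower of 8183. The F test called 2 in the authors' table, with an offset of 50 and at a detection p under 0.01, 3 without background correction, and 0 with median scaling and with no filter. The F test passed 23.6% of all genes as reported and 34.6% with the block. Under the settings just named that share was not taken, so their counts cannot be read against all genes. At 24 h the genes called in all were 64 in the authors' table, 75 without background correction, 1 with an offset of 50, 1 at a detection p under 0.01 and 440 with the replicate block. The block also gave 740 genes in all at 1 h, 1 of the 6 lower at 1 h and at 24 h, and 3 in the F test, and changed no other call of the 6.

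Leaving out 1 array gave 79 to 324 genes in all at 1 h and 842 to 1591 at 6 h. The changes at 6 h were then -0.62 to -0.49 for Lama2, -0.61 to -0.42 for Lamb2, 0.35 to 0.63 for Lamc1 and 0.42 to 0.54 for Hspg2. At 6 h against 1 h they were -0.62 to -0.49 for Lamb2 and 0.4 to 0.51 for Hspg2. Signs turned in 18 of 650 values, all uncalled. Median scaling turned Lama2 at 24 h against 6 h to 0.01 and, at 1 h, Lamb2 to -0.08 and Hspg2 to -0.1. Other sign changes came from leaving out 1 array. Without control replicate a, Lamb3 was 0.08 at 6 h and 0.01 at 24 h and Agrn 0.02 at 6 h. Without control replicate b, Lamb2 was -0.05 and Hspg2 -0.04 at 1 h, and without 1 h replicate a both were -0.02. Without 1 h replicate b, Lama2 was 0.08 at 6 h against 1 h. Without 6 h replicate a, Lamb3 was 0.08 and Agrn 0.04 at 6 h. At 24 h against 6 h, Lama2 was 0.04 and Lamb3 0.05 without 6 h replicate b, 0.09 and 0.02 without 24 h replicate a, and Hspg2 0.02 without 24 h replicate b. At the other end, the same fits gave Lama2 -0.2 at 6 h against 1 h and -0.13 at 24 h against 6 h, Lamb2 0.14 and Hspg2 0.08 at 1 h, Lamb3 -0.14 at 6 h, -0.19 at 24 h and -0.17 at 24 h against 6 h, Hspg2 -0.21 at 24 h against 6 h and Agrn -0.14 at 6 h. The cause was not tested. Lama2 was near background, and its change at 6 h was -0.55 as reported and -0.27 without background correction.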
